A study of Mus musculus with 12 samples.

Results

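Of the 13516 genes tested in mouse embryonic fibroblasts, 80 had a difference between HOXB13 and vector cells that was at least 1 log2 unit (2-fold) in one direction at day 1 and at least 1 log2 unit in the other direction at day 21. They are called crossing genes here. Of these, 42 were lower in HOXB13 cells at day 1 and higher at day 21, with periostin, thrombospondin 2, elastin and other matrix genes among them. The other 38 were higher in HOXB13 cells at day 1 and lower at day 21, with 7 genes known as interferon-stimulated and 8 genes grouped afterwards as lipid and retinoid handling among them. The genes were chosen on log2(value + 1) from the virus differences themselves. Those differences, and the interaction of virus and day that follows from them, are therefore given as descriptions without a test.

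HOXB13 is a homeobox transcription factor that in the embryo marks the posterior end of the body axis and in the adult is best known from the prostate. Fibroblasts make and remodel the extracellular matrix, a network of collagens, elastic fibres, proteoglycans and matricellular proteins, and osteogenic medium pushes them towards a bone-forming programme. Interferon-stimulated genes are a shared antiviral set switched on by interferons through STAT and IRF factors, which bind a DNA element called ISRE in their promoters.

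The cells were a fibroblast line from embryos of β-actin-TVA/p53-/- mice, so all 4 groups lack p53 and carry TVA, the receptor that lets avian RCAS viruses enter, under the β-actin promoter. They had been given RCAS-GFP, called vector, or RCAS-HOXB13. RNA was taken from confluent cells in DMEM with serum at day 1, or from cells kept in OsteoMAX-XF, a commercial osteogenic medium, up to day 21, with 3 libraries for each virus and day. The title of the series asks about osteogenic differentiation under excess HOXB13. Day, medium and culture plate go together and cannot be told apart. The wells were triplicates, and separate animals or cultures are named in no label. The spread behind each p-value is that between these wells and may be technical.

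Levels are gene reads per 1000000 reads of the scaled library (RPM), and each library held between 11109392 and 15154317 gene reads. Replicates differed by more than counting noise, with a chi-square per gene between 1.36 and 5.82. Hoxb13 averaged 0.375 RPM in vector and 327 RPM in HOXB13 cells at day 1, and 0.343 and 248 RPM at day 21. The 2 viruses also divided by sex-linked genes: Xist averaged 427 and 0.332 RPM at day 1, and the Y-linked Ddx3y 0.171 and 98.3 RPM. At day 21 Xist averaged 158 and 0.303 RPM, and Ddx3y 0.13 and 106 RPM. The virus therefore cannot be told apart from the sex of the cells, or from the embryo or culture they came from. This limit holds at both days and for crossing genes on every chromosome. All 10 fibroblast markers were present in every group, with summed levels of 25022 to 25607 RPM in vector and 15009 to 15234 RPM in HOXB13 cells at day 1, and 20508 to 22345 and 18821 to 19609 RPM at day 21. The summed mesothelial markers were 1035 to 1078 RPM in vector and 188 to 200 RPM in HOXB13 cells at day 1, and 3838 to 3954 and 80.4 to 94.8 RPM at day 21. Macrophage markers summed to 3.87 to 5.18 RPM at day 1 and 63.9 to 72.5 RPM at day 21 in both viruses together, with Adgre1 and Itgam at 0 in some groups. Summed epithelial markers were 322 to 334 RPM in vector and 147 to 160 RPM in HOXB13 cells at day 1, and 221 to 237 and 30.3 to 32.2 RPM at day 21, with Krt5 at 0 in 3 of the 4 groups. Neural markers were 360 to 370 RPM in vector and 806 to 821 RPM in HOXB13 cells at day 1, and 24.5 to 26.2 and 57 to 65.2 RPM at day 21. Endothelial markers were 14.3 to 14.8 and 5.59 to 6.39 RPM at day 1, and 31.8 to 34 and 4.78 to 5.53 RPM at day 21. The mitochondrial share of reads itself changed order between the viruses, at 1.14% ± 0.065 in vector and 1.38% ± 0.037 in HOXB13 cells at day 1, then 2.67% ± 0.16 in vector beside 1.75% ± 0.042 (SD, n = 3 each) at day 21. The part of other cell types and of RNA quality in the crossing genes was not tested, and in bulk samples fewer cells of a type and less RNA per cell cannot be told apart.

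Promoters of 4 crossing genes are shown because they hold the sequence features that were counted over all crossing genes. They are RefSeq sequences on GRCm38.p6, 250 bases before to 50 after the start site. In Cxcl10 (chr5:92348840-92349139, minus strand), Bst2 (chr8:71537423-71537722, minus strand) and Gbp3 (chr3:142559794-142560093, plus strand), all higher then lower, capitals mark matches to the ISRE-like motif, joined where matches overlap, and the Gbp3 matches lie on the other strand. In Postn (chr3:54360857-54361156, plus strand), lower then higher, capitals mark a TATA box.
Cxcl10: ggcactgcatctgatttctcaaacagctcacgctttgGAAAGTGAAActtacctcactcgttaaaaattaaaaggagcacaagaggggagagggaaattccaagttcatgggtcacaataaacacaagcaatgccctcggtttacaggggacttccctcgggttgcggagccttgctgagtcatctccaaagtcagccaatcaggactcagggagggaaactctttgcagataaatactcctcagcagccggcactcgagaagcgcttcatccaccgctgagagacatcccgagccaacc
Bst2: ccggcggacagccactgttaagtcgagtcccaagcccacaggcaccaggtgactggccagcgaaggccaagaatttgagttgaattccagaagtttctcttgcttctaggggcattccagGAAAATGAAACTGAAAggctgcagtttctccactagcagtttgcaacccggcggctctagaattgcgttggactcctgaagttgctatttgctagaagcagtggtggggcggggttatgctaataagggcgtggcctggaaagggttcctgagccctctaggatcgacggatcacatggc
Gbp3: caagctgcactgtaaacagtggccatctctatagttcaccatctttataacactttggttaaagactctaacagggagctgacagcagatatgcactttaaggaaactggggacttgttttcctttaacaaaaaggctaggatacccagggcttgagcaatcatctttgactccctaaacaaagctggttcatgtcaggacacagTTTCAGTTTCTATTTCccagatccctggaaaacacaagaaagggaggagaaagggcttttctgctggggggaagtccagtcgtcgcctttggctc
Postn: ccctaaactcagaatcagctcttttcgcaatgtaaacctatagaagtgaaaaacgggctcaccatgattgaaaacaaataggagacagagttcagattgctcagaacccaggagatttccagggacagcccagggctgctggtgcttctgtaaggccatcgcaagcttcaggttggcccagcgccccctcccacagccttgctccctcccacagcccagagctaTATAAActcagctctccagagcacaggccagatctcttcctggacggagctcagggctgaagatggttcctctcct
The match began 213 bases before the start site in Cxcl10, at 130 and 124 bases before it in Bst2, at 45 and 39 bases in Gbp3, and 26 bases before it in Postn.

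RefSeq promoters were matched for 31 of the 42 lower-then-higher genes, 26 of the 38 higher-then-lower genes and 10312 of all tested genes with a name. The ISRE-like motif, GAAA and again GAAA with any 2 bases between them, searched on both strands like all motifs here, was in promoters of 6 of the 26 higher-then-lower genes (23.1%), which were Bst2, Crybg1, Ctso, Cxcl10, Gbp3 and Nebl. It was in 1 of 31 lower-then-higher genes (3.23%) and in 3.68% of all tested genes. Crybg1, Ctso and Nebl are not usually counted as interferon genes. Oasl2 and Irf7, which were grouped as interferon-stimulated, had matched promoters without this motif. TATAAA, the letters of a TATA box, was counted anywhere in the window. It was in 19.4% of lower-then-higher genes (Bmpr1b, F3, Fndc1, Postn, Serpinb2 and Thbs2), in 23.1% of higher-then-lower genes and in 9.02% of all. From the start site, matches began at -26 in Postn and -29 or -116 in Serpinb2. They began at -126 in Thbs2, -219 in Fndc1, -244 and -242 in Bmpr1b and 43 in F3. In higher-then-lower genes they began at -29 in Abca1 and Irf7 and -30 in Gstm1. Those of Reps2, Oasl2 and Gbp3 began at -127, -187 and -207. The shares thus count letters and not placed TATA boxes. CCAATAAA, a preferred HOXB13 site, was in no crossing promoter and in 0.97% of all, and no match says only that these letters are not in this window. The AP-1 site TGANTCA was in 3 lower-then-higher genes (9.68%) and 3 higher-then-lower genes (11.5%), against 6.5% of all. The TEAD site GGAATG was in 3 (9.68%) and 4 (15.4%), against 14.7%. The NF-κB site (GGGA, any base, TT, any base, CC) was in none and 2 (7.69%), against 1.54%. The CArG box was in 1 (3.23%) and 1 (3.85%), against 1.62%. A match is a description of the letters and not a bound site.

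The promoters of crossing genes in both directions had lower CpG ratios than those of all tested genes, given here as a description. The median ratio of observed to expected CpG was 0.572 in lower-then-higher genes and 0.466 in higher-then-lower genes, beside 0.75 in all tested genes. A ratio under 0.4 was found in 10 of 31 genes (32.3%) and in 8 of 26 genes (30.8%), beside 11.4% of all. GC content differed less between the sets, with medians of 61.7%, 54.5% and 61%. No other set of genes with virus differences of this size was measured. A low CpG ratio is therefore not shown to be particular to crossing genes.

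Crossings of this size were uncommon. A virus difference of at least 1 log2 unit was seen in 1792 genes at day 1, in 2237 at day 21 and in 867 at both. Of the 867, 787 had the same sign at both days and 80 (9.23%) the opposite sign, and these 80 are the crossing genes, 0.592% of genes tested. The lower-then-higher genes are 0.311% of genes tested and the higher-then-lower genes 0.281%. Over all genes, 68.2% were called for the interaction of virus and day with limma at an adjusted p of 0.05. The virus difference was called at both days with opposite signs in 16%, mostly by less than 1 log2 unit. Called interactions of at least 2 log2 units numbered 662 (4.9%), of which 12.1% were crossing genes. The libraries of the 2 viruses did not overlap at either day in any of the 80 genes, where 17% of all genes had libraries apart in opposite directions (9.98% lower then higher and 7.06% higher then lower). The rule itself nearly fixes that count, and nothing is read from it.

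**Figure D1:**
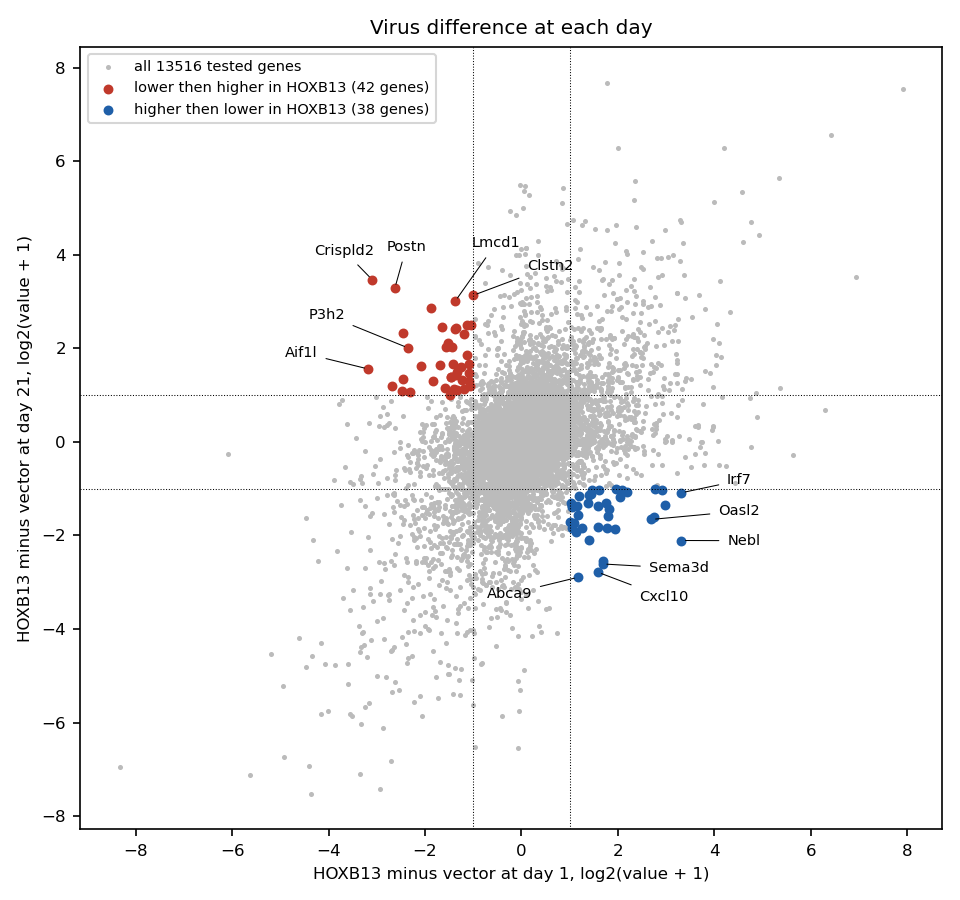
HOXB13 minus vector on log2(value + 1) at day 1 (x axis) and day 21 (y axis), 1 point a gene, grey for all 13516 tested genes; dotted lines mark 1 log2 unit. The 42 lower-then-higher genes fill the upper left corner out to Crispld2 (-3.09 and 3.47) and the 38 higher-then-lower genes the lower right corner out to Nebl (3.32 and -2.11).

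In the lower-then-higher genes the median virus difference was -1.45 at day 1 (from -3.17 to -1.01) and 1.63 at day 21 (from 1.01 to 3.47). In the higher-then-lower genes it was 1.59 (from 1.01 to 3.32) and -1.41 (from -2.89 to -1.003). The medians over all genes were -0.03 and 0.01. The standard error of a virus difference in a crossing gene had a median of 0.103 and was at most 0.21. The lower-then-higher genes nearest the limit were Clstn2 and F3 inside it (smaller side 1.01 each) and Tubb3 and Chst13 outside it (0.99 each). In the other direction Wnk4 (1.003) and Slc8a1 (1.01) were inside and Neurl1a (0.995) and Satb1 (0.99) outside. The heat map of single libraries shows the high libraries of most genes in diagonally opposite groups of the design.

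**Figure D2:**
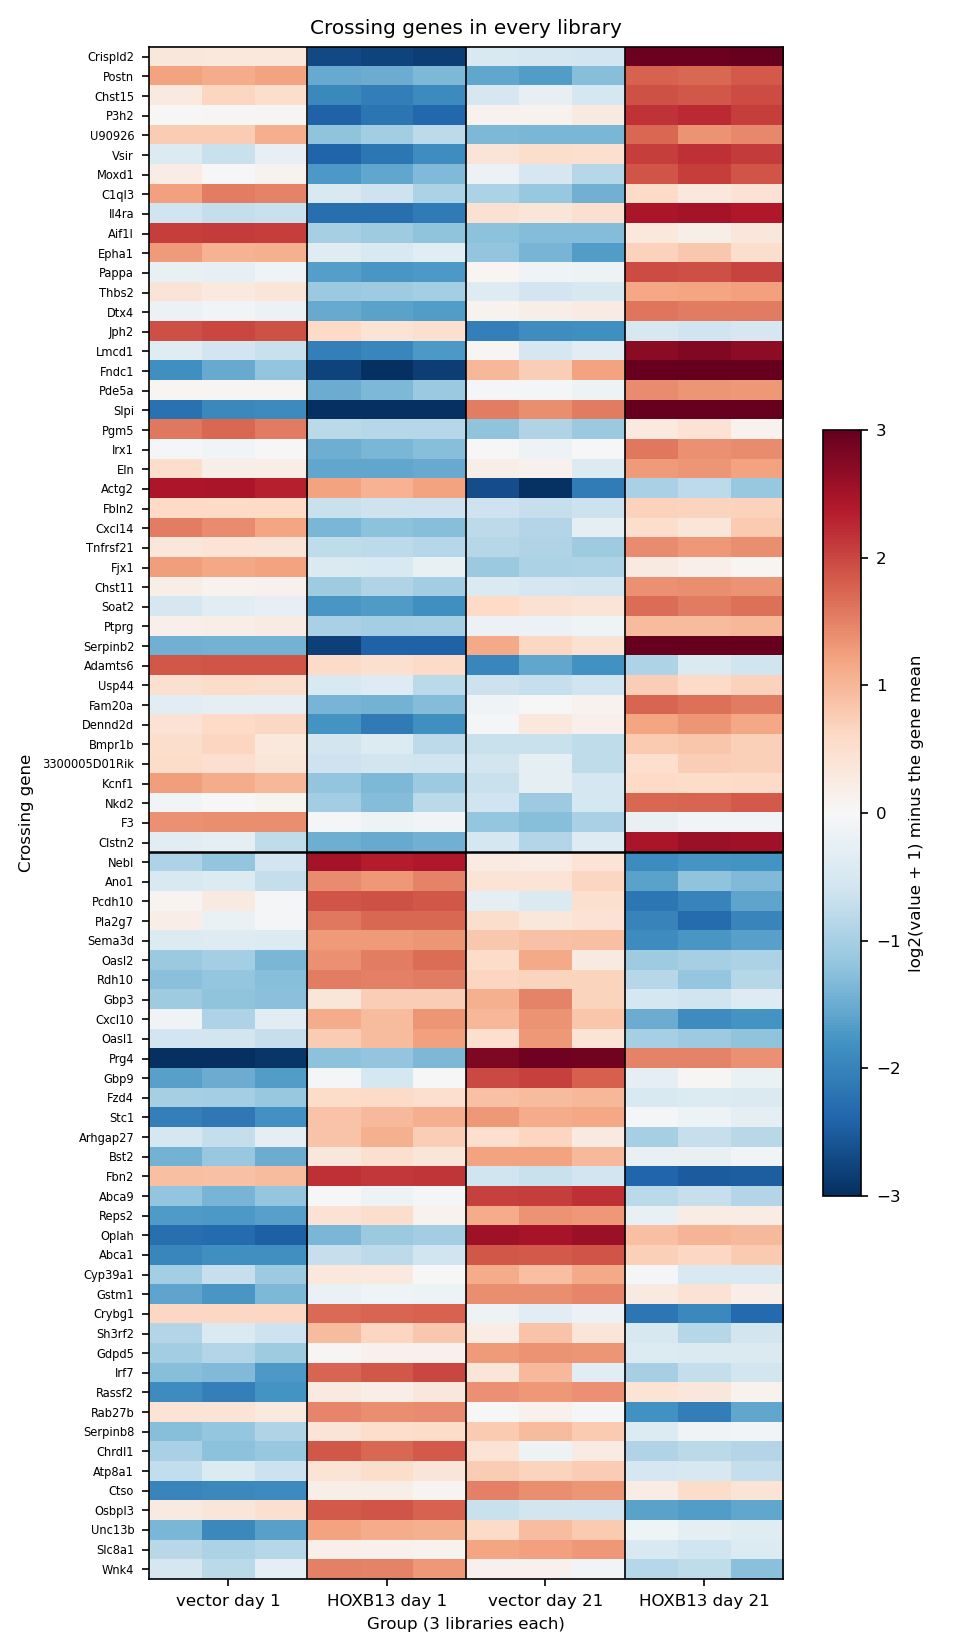
Each row is 1 of 78 crossing genes and each column 1 of the 12 libraries, coloured by log2(value + 1) minus the gene's mean, with colours held at 3 and -3 beyond those values; a black line divides 41 lower-then-higher genes (top) from 37 higher-then-lower genes. In most upper rows vector at day 1 and HOXB13 at day 21 are red, and in most lower rows HOXB13 at day 1 and vector at day 21.

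After their values were seen, 14 crossing genes were grouped as matrix proteins and matrix-modifying enzymes. Of these, 12 were lower then higher in HOXB13 cells and 2, Prg4 and Fbn2, higher then lower. The other role groups below were made in the same way. Crispld2, a secreted protein with a LCCL domain that binds lipopolysaccharide (chr8:119992438-120052793, plus strand), had the largest interaction of all tested genes. Its levels were 261, 256 and 258 RPM in vector and 30.8, 29.1 and 28.4 RPM in HOXB13 cells at day 1, and 149.6, 146 and 139 and 1596, 1593 and 1641 RPM at day 21. The virus difference was -3.09 ± 0.03 (SE) at day 1 and 3.47 ± 0.03 at day 21 on the log2(value + 1) scale. Periostin (Postn; chr3:54361109-54391037, plus strand), a matricellular protein of periosteum and healing tissue that binds integrins and collagen, held 1310.3, 1232 and 1316 RPM in vector and 198, 202 and 223 RPM in HOXB13 cells at day 1. At day 21 the order was the other way round, with 191, 176 and 235 RPM in vector and 1941, 1862 and 2041 RPM in HOXB13 cells. HOXB13 cells at day 1 and vector cells at day 21 thus overlapped in periostin, and the high groups were vector at day 1 and HOXB13 at day 21.

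Thrombospondin 2 (Thbs2), a matricellular inhibitor of angiogenesis, went from 666, 621 and 656 RPM in vector and 234, 244 and 250.1 RPM in HOXB13 cells at day 1 to 389.5, 342 and 365 and 1142, 1149 and 1188 RPM at day 21. Fibulin 2 (Fbln2), a component of elastic fibres and basement membranes, was nearly symmetric: 3439.5, 3389 and 3419.8 RPM in vector and 1422, 1466 and 1476 RPM in HOXB13 cells at day 1, then 1469, 1406 and 1454 and 3651, 3569 and 3632 RPM. The day 21 levels of each virus were close to the day 1 levels of the other. Elastin (Eln), the core of elastic fibres, was low in all groups, at 12.8, 9.80 and 10.04 RPM in vector and 2.27, 2.27 and 2.34 RPM in HOXB13 cells at day 1 and 9.78, 9.52 and 6.23 and 22.2, 23.1 and 21 RPM at day 21. Chst11 and Chst15, enzymes of chondroitin sulfate sulfation, crossed alike. Chst15 held 22.1, 28.1 and 26.1 RPM in vector and 3.90, 3.44 and 3.99 RPM in HOXB13 cells at day 1, and 12.3, 14.7 and 12.1 and 69.4, 66.8 and 71.4 RPM at day 21. P3h2, a prolyl 3-hydroxylase of collagen, held 15.4, 15.9 and 15.9 RPM in vector at day 1 and 16.7, 16.6 and 18.8 RPM at day 21, a small difference between the days. In HOXB13 cells P3h2 was at 2.09, 2.59 and 2.21 RPM and then 73.8, 76.6 and 68.1 RPM. Pappa, a metalloprotease that cleaves IGF-binding proteins, also differed over time mainly in HOXB13 cells, with vector levels of 52.3, 50.8 and 55.4 RPM at day 1 and 62.9, 56.7 and 54.7 RPM at day 21 beside 18.6, 17.3 and 17.8 and 241, 237 and 249 RPM in HOXB13 cells.

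The remaining lower-then-higher matrix genes were Fndc1, Adamts6 (an ADAMTS protease) and Fam20a (a secreted pseudokinase of enamel formation), with virus differences from -1.37 to -1.08 at day 1 and from 1.11 to 2.42 at day 21. The other direction held fibrillin 2 (Fbn2), a microfibril protein of the embryo, and Prg4 (lubricin), the boundary lubricant of joints. Fbn2 was at 127, 125 and 131 RPM in vector and 313, 296 and 302 RPM in HOXB13 cells at day 1, and at 44.1, 41.9 and 44.9 and 12.1, 11.2 and 11.3 RPM at day 21. Prg4 was at 3.36, 4.01 and 4.49 and 16.6, 17.4 and 15.3 RPM at day 1, and at 289, 313 and 307 and 116, 116 and 106 RPM at day 21. Fbn2 was lower at day 21 in both viruses and Prg4 higher in both, so a sign change of the virus difference did not need opposite courses over time.

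**Figure D3:**
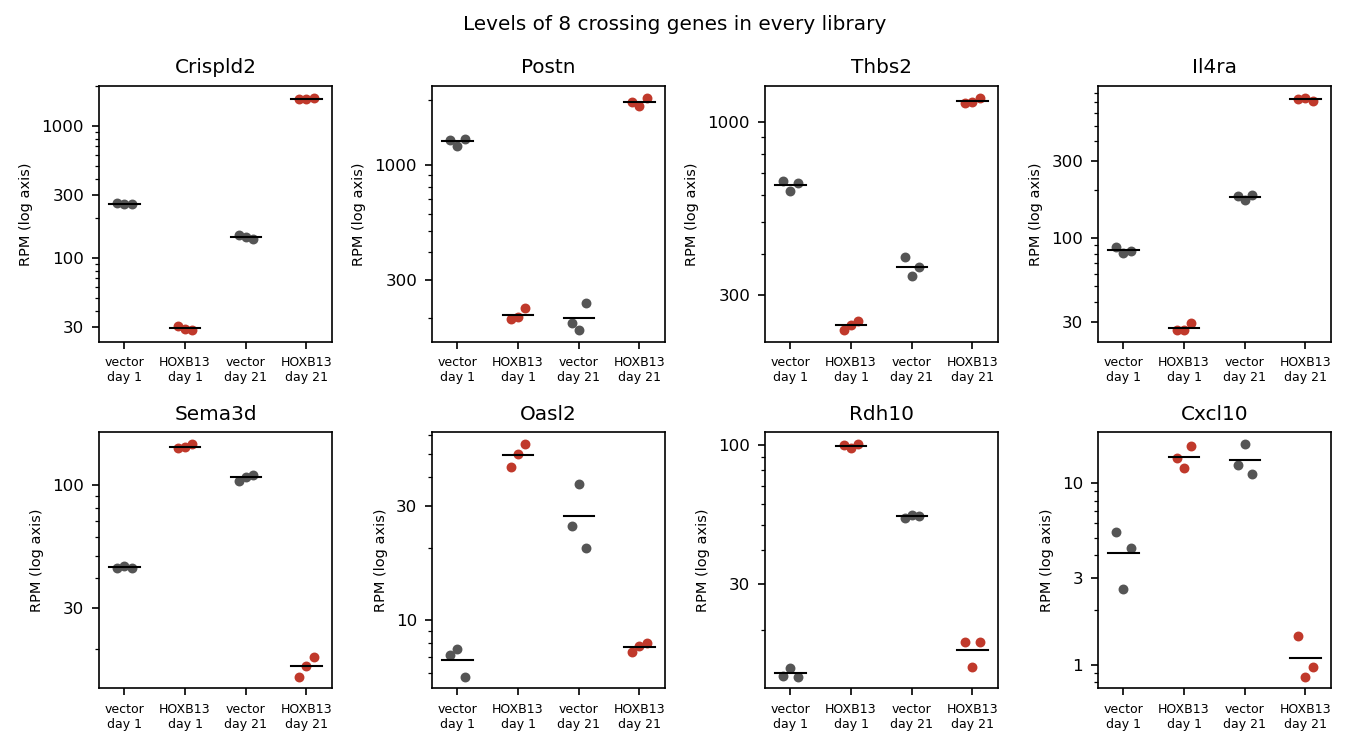
RPM on a log axis in every library of 8 crossing genes; points are libraries, lines the group means. Crispld2, Postn, Thbs2 and Il4ra are lower in HOXB13 cells at day 1 and higher at day 21, Sema3d, Oasl2, Rdh10 and Cxcl10 the reverse, and in none of the 8 do the viruses overlap at either day.

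Among 18 receptors, ligands and signalling proteins, 13 were lower then higher and 5 higher then lower. Il4ra, the receptor chain shared by interleukins 4 and 13, held 87.9, 80.1 and 83.1 RPM in vector and 26.9, 26.7 and 29.5 RPM in HOXB13 cells at day 1, and 181, 171 and 185 and 731, 747 and 711 RPM at day 21. Of the BMP pathway, the receptor Bmpr1b was lower then higher (-1.08 ± 0.10 and 1.48 ± 0.10) and the secreted antagonist Chrdl1 higher then lower. Chrdl1, on the X chromosome, was at 0.454, 0.223 and 0.300 RPM in vector and 9.37, 8.37 and 9.22 RPM in HOXB13 cells at day 1, and at 2.77, 1.57 and 2.41 and 0.531, 0.624 and 0.557 RPM at day 21. Chrdl1 was highest in HOXB13 cells at day 1. In Wnt signalling, Nkd2, an inhibitor that binds Dishevelled, was lower then higher (-1.05 ± 0.14 and 2.51 ± 0.14), and the receptor Fzd4 higher then lower (1.59 ± 0.05 and -1.37 ± 0.05).

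Cxcl14, a chemokine of epithelia and stroma, was at 13.7, 12.7 and 10.7 RPM in vector and 0.989, 1.17 and 1.11 RPM in HOXB13 cells at day 1, and at 1.96, 1.80 and 3.27 and 6.37, 5.53 and 7.80 RPM at day 21. Vsir, the immune checkpoint VISTA, C1ql3, a secreted C1q-like protein, and the receptor kinase Epha1 were also lower then higher, with virus differences of -1.70 ± 0.12 and 1.64 ± 0.12 for Vsir. For Epha1 they were -1.52 ± 0.12 and 2.10 ± 0.12, but its exons overlap those of Zyx on the opposite strand, which differed by -1.51 at day 1 and 0.16 at day 21. The guidance molecule Sema3d had the opposite order: 44.4, 45.3 and 44.3 RPM in vector and 143, 145 and 149.7 RPM in HOXB13 cells at day 1, and 104, 109 and 111 and 15.2, 17 and 18.4 RPM at day 21. Stc1, a secreted glycoprotein acting on calcium and phosphate in fish, was higher then lower too, at 2.98 ± 0.09 and -1.34 ± 0.09. Other lower-then-higher genes of the group were Dtx4, Tnfrsf21, Fjx1, Ptprg and Clstn2.

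Contractile, cytoskeletal and adhesion genes numbered 9, of which 6 were lower then higher. Aif1l, an actin-binding protein, was at 262, 268 and 262 RPM in vector and 30.2, 29.1 and 26.2 RPM in HOXB13 cells at day 1, and at 25.4, 24.4 and 24.5 and 76.9, 70.1 and 77.8 RPM at day 21. The smooth muscle actin Actg2, whose close paralogs make its counts uncertain, held 212, 214 and 199.9 and 90.6, 80.5 and 89.7 RPM at day 1 and 5.22, 4.05 and 8.18 and 19, 21.9 and 16.9 RPM at day 21. Both viruses were far lower in Actg2 at day 21, but vector cells by more. Of 16 smooth muscle genes measured, 12 were lower and 2 higher in HOXB13 cells at day 1 (limma), where 38.5% and 33.9% of all genes were, and 9 lower and 5 higher at day 21, where 35.1% and 37.3% were. Actg2 was the crossing gene among them. Lmcd1, a LIM-domain repressor of GATA6, Jph2, which ties plasma membrane to endoplasmic reticulum in muscle, Pde5a, a cGMP phosphodiesterase, and Pgm5, a protein of adherens junctions and costameres, were the others. Nebl (nebulette), an actin-binding protein of muscle Z-discs, was the higher-then-lower gene with the largest interaction among crossing genes, at -5.42 ± 0.19. Its levels were 1.09, 0.742 and 1.65 RPM in vector and 21.4, 19.3 and 19.97 RPM in HOXB13 cells at day 1, and 3.67, 3.60 and 4.28 and 0.0759, 0.156 and 0.139 RPM at day 21. The protocadherin Pcdh10 (1.77 ± 0.17 and -1.84 ± 0.17) and Crybg1 (1.13 ± 0.10 and -1.93 ± 0.10) crossed in the same direction.

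Of 5 protease regulators and proteases that crossed, 3 were lower then higher. Slpi, a secreted inhibitor of leukocyte proteases, was at 2.18, 2.97 and 3. RPM in vector and 0.407, 0.259 and 0.676 RPM in HOXB13 cells at day 1, and at 42.6, 38.8 and 43.1 and 231, 222 and 230.0 RPM at day 21. Serpinb2, the plasminogen activator inhibitor PAI-2, and F3, tissue factor, were the other lower-then-higher genes. Serpinb8, 54.5 kb from Serpinb2 on chromosome 1, crossed in the other direction (1.60 ± 0.12 and -1.04 ± 0.12, against -1.12 ± 0.12 and 2.49 ± 0.12 in Serpinb2). Ctso, cathepsin O, was also higher then lower. Within 500 kb of each other lay 7 neighbouring pairs of crossing genes. Oasl2 with Oasl1 and Pla2g7 with Cyp39a1 crossed in the same direction and the other 5 pairs in opposite directions. No such count for other genes is set beside it, so no clustering is read from it.

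All 7 crossing genes grouped as interferon-stimulated were higher then lower. Oasl2, an oligoadenylate synthetase-like protein (chr5:114896936-114912234, plus strand), was at 7.09, 7.57 and 5.77 RPM in vector and 44, 49.8 and 54.9 RPM in HOXB13 cells at day 1. At day 21 it was at 24.8, 37.2 and 20.1 RPM in vector and 7.36, 7.79 and 8. RPM in HOXB13 cells. Vector cells at day 1 and HOXB13 cells at day 21 overlapped at the low level. The chemokine Cxcl10, which draws T cells through CXCR3, was at 5.36, 2.60 and 4.42 RPM in vector and 13.8, 12.1 and 16 RPM in HOXB13 cells at day 1, and at 12.6, 16.4 and 11.3 and 1.44, 0.857 and 0.975 RPM at day 21. Tetherin (Bst2), which holds budding virions on the cell surface, was at 21.2, 26.1 and 20.3 and 74.5, 82.1 and 76.1 RPM at day 1, and at 136, 137 and 116 and 50.4, 50.1 and 55.1 RPM at day 21. Irf7, the transcription factor that amplifies the interferon response, was at 1.27, 1.19 and 0.674 and 17.5, 19 and 21 RPM, then at 6.03, 9.90 and 3.35 and 1.74, 2.34 and 2.78 RPM. Oasl1 and the guanylate-binding proteins Gbp3 and Gbp9 completed the group, with differences of 1.39 ± 0.13 and -2.10 ± 0.13 for Gbp9. Oasl1, Oasl2 and Gbp9 have close paralogs whose reads may be shared, and Gbp9 overlaps exons of Gbp4 and Gbp8 on the same strand. Gbp4 and Gbp8 differed by -0.29 and -0.02 at day 1 and by -2.10 and -2.35 at day 21. The part of their reads in the Gbp9 difference was not tested.

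One library weighs on the 7 interferon-stimulated crossing genes at day 21. Vector replicate 2 was the highest of the 3 vector libraries at day 21 in all 7 genes, and in 22 of the 23 measured genes of the interferon list, against 34.3% of all genes. Without it the day 21 difference was -1.42 in Oasl2, -2.64 in Cxcl10, -1.26 in Bst2 and -0.76 in Irf7, so that Irf7 no longer reached 1 log2 unit and the other 6 did. The reason this library stood higher was not tested.

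The interferon list sets the crossing genes beside a wider set. Of its 23 measured genes, 22 were higher and 1, Gbp2, lower in HOXB13 cells at day 1 (limma, adjusted p under 0.05), where 33.9% of all genes were called higher and 38.5% lower. At day 21, 3 were higher (Ifit2, Stat2 and Ifit3) and 13 lower, where 37.3% and 35.1% of all genes were called. The median difference was 2.18 at day 1 and -0.51 at day 21. In all, 12 genes were called at both days as higher then lower, where 6.51% of all genes were, and 5 of the 23 are crossing genes. Without vector replicate 2 of day 21, 10 were lower at day 21, 5 were higher, the median was -0.29 and 9 were called higher then lower. The interaction was called lower in 22 of 23 genes, where 31.7% of all genes were, and in 22 of 23 without that library. The list was chosen with earlier results of these data known. Its directions at day 1, at day 21 and in the interaction are therefore no independent evidence. The 5 crossing genes are among those counted, and the rule fixed their signs. Isg15, a ubiquitin-like protein, averaged 6.36 RPM in vector and 39.4 RPM in HOXB13 cells at day 1, and 9.86 and 5.30 RPM at day 21.

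**Figure D4:**
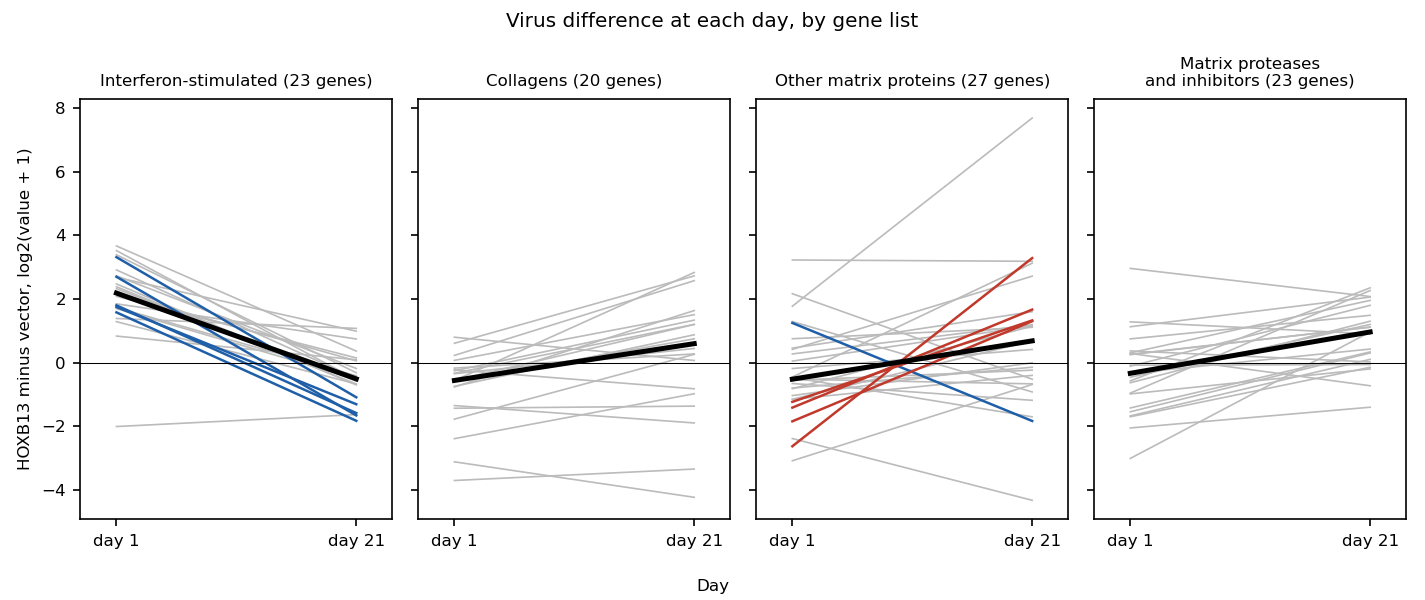
HOXB13 minus vector on log2(value + 1) at day 1 and day 21 for the measured genes of 4 lists; grey lines are genes, blue and red lines crossing genes (higher then lower, and lower then higher), and the black line the list median. The median of the interferon list goes from 2.18 to -0.51, while those of the collagens (-0.56 to 0.60), other matrix proteins (-0.52 to 0.68) and matrix proteases and inhibitors (-0.34 to 0.96) pass zero in the other direction.

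Many other matrix genes also changed sign between the days, by less. Of 20 collagen genes measured, none reached the crossing limit, while 16 were lower and 3 higher in HOXB13 cells at day 1, where 38.5% and 33.9% of all genes were. At day 21, 13 were higher and 6 lower, where 37.3% and 35.1% of all genes were. As lower then higher at both days 10 were called, and none as higher then lower, where 9.5% and 6.51% of all genes were. Col3a1, a fibrillar collagen of soft tissue, averaged 3170 RPM in vector and 1891 RPM in HOXB13 cells at day 1 and 6363 and 11650 RPM at day 21. Col6a3 averaged 849.8 and 500.5 RPM at day 1 and 296 and 922 RPM at day 21. The basement membrane chains Col4a5 and Col4a6 did not cross and were lower in HOXB13 cells at both days. Of 27 other matrix proteins, 17 were lower and 9 higher at day 1, 15 were higher and 11 lower at day 21 beside the same shares of all genes, 8 were called lower then higher and 3 higher then lower, and 5 are crossing genes (Postn, Thbs2, Eln, Fbln2 and, in the other direction, Fbn2). Of 23 matrix proteases and their inhibitors, 13 were lower and 9 higher at day 1, 17 were higher and 4 lower at day 21, 10 were called lower then higher and 1 higher then lower. The interaction was called higher in 14 of the 20 collagens, 19 of the 27 other matrix genes and 18 of the 23 proteases and inhibitors, where 36.6% of all genes were, and lower in 4, 6 and 4 of them, where 31.7% were. The signs of these list medians at both days held under median-of-ratios scaling, quantile normalization, RPM without the scaling factors and edgeR. These lists too were chosen with earlier results of these data known, and their directions are no independent evidence.

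Of 9 crossing genes grouped as lipid and retinoid handling after their values were seen, 8 were higher then lower. Wider gene lists did not share 1 direction. The interaction was called higher in 17 and lower in 2 of 22 cholesterol and fatty acid synthesis genes. It was higher in 5 and lower in 3 of 12 adipocyte and lipid storage genes. The retinoic acid list had a median virus difference of -0.44 at day 1 and -0.61 at day 21. Its day 1 median was thus opposite in sign to the 8 genes. Its interaction was called higher in 5 and lower in 7 of 14 genes, with a median of -0.38. Of all genes, 36.6% were called higher and 31.7% lower. Rdh10 was the crossing gene on these 3 lists. Rdh10, the retinol dehydrogenase that starts retinoic acid synthesis, was at 13.5, 14.4 and 13.4 RPM in vector and 99.3, 97.3 and 100.4 RPM in HOXB13 cells at day 1, and at 52.9, 54.4 and 53.9 and 18.1, 14.6 and 18.2 RPM at day 21. Abca1, which exports cholesterol to apolipoprotein A-I, was at 21.5, 23.4 and 23.3 and 53.6, 49.9 and 57.2 RPM at day 1, and at 317, 312 and 321 and 142, 135 and 151 RPM at day 21. Its relative Abca9 was at 3.82, 3.12 and 3.82 and 9.78, 8.69 and 9.65 RPM at day 1, and at 43.7, 44.5 and 48.9 and 5.16, 5.77 and 4.94 RPM at day 21. For Abca1 and Abca9 the highest group was vector at day 21, whereas for Rdh10 it was HOXB13 at day 1. Pla2g7, a phospholipase of oxidised lipids, differed by 1.70 ± 0.12 and -2.54 ± 0.12. Cyp39a1 (an oxysterol hydroxylase), Gdpd5, Atp8a1 (a flippase) and Osbpl3 (an oxysterol-binding protein relative) had differences from 1.03 to 1.46 at day 1 and from -1.73 to -1.02 at day 21. Soat2, which esterifies cholesterol, was the exception, at -1.40 ± 0.11 and 1.13 ± 0.11.

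Ion transport genes on the higher-then-lower side were the chloride channel Ano1, the sodium-calcium exchanger Slc8a1 and the kinase Wnk4, and on the other side the potassium channel subunit Kcnf1. Trafficking and small GTPase genes were Unc13b, Rab27b, Rassf2, Reps2 and Arhgap27 on the higher-then-lower side, and Dennd2d on the other. Ano1 was at 1.73, 1.78 and 1.27 RPM in vector and 8.96, 8.24 and 9.46 RPM in HOXB13 cells at day 1, and at 3.91, 3.97 and 4.83 and 0.228, 0.624 and 0.487 RPM at day 21. Rassf2 was at 11.7, 10.2 and 12.6 and 55.9, 53.1 and 58.3 RPM at day 1, and at 121, 115 and 121 and 61.4, 58 and 49.5 RPM at day 21. The remaining 8 genes included the homeobox gene Irx1, the monooxygenase-like Moxd1, the deubiquitinase Usp44 and U90926 (lower then higher), and the 5-oxoprolinase Oplah and the glutathione transferase Gstm1 (higher then lower). U90926 was at 4.09, 4.01 and 5.32 RPM in vector and 0.291, 0.454 and 0.737 RPM in HOXB13 cells at day 1, and at 0.163, 0.150 and 0.156 and 8.88, 6.55 and 7.03 RPM at day 21. Of the 80 genes, 79 are annotated as protein-coding and 2, Reps2 and Chrdl1, lie on X, where 454 genes were tested. Of the 80, 16 averaged under 1 RPM in at least 1 group, and their differences are understated by the added 1.

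The sign changes arose from different courses over time in each virus, given here without a test because their difference is what the rule used. Of the 42 lower-then-higher genes, 37 were at least 1 log2 unit higher at day 21 than at day 1 in HOXB13 cells (13.2% of all genes were), and 3 were lower (10.5%). In vector cells 19 of the 42 were at least 1 log2 unit lower (12%), 4 higher (16.1%) and 19 within 1 unit. Of the 38 higher-then-lower genes, 29 were higher and 2 lower in vector cells, while in HOXB13 cells 22 were lower, 3 higher and 13 within 1 unit. Opposite courses of at least 1 log2 unit in each virus were seen in 14 and 13 genes of the 2 sets, where 0.658% of all genes had them. The highest group was HOXB13 at day 21 in 31 and vector at day 1 in 11 of the lower-then-higher genes. It was HOXB13 at day 1 in 20 and vector at day 21 in 18 of the higher-then-lower genes.

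**Figure D5:**
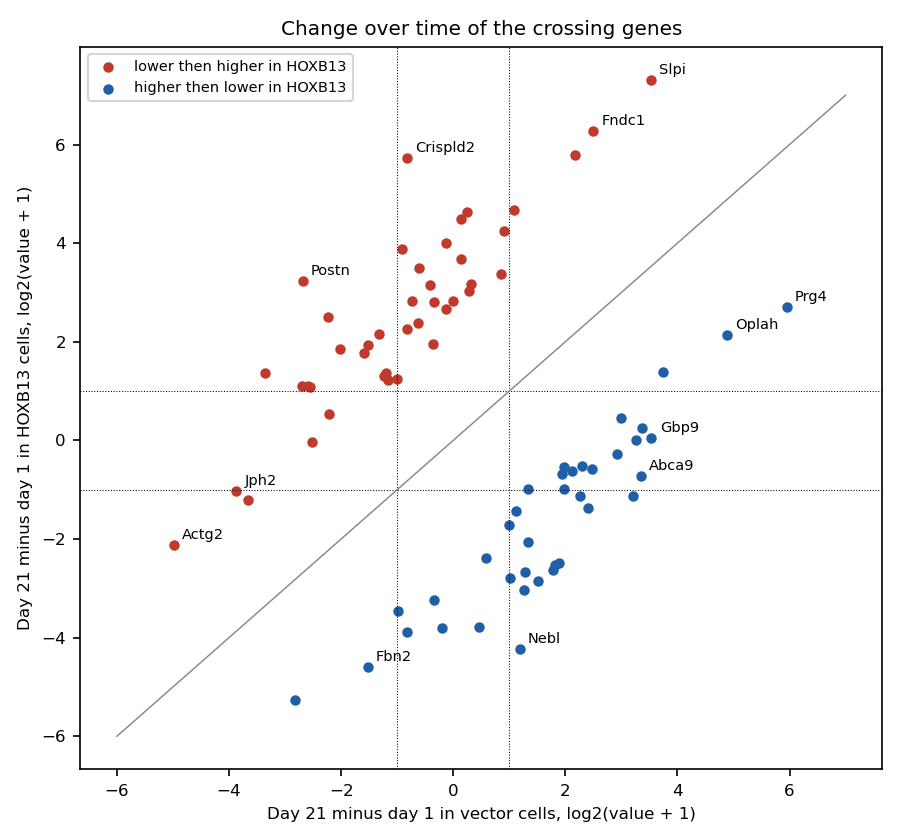
Day 21 minus day 1 on log2(value + 1) in vector (x axis) and HOXB13 cells (y axis) for the 80 crossing genes; the solid line marks equal change, dotted lines 1 log2 unit. Red lower-then-higher genes lie above the line and blue higher-then-lower genes below it, and 14 red and 13 blue genes lie past the dotted lines on opposite sides.

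The change from day 1 to day 21 averaged over both viruses was the 1 contrast that the choice of genes did not use, and it was tested with limma over all genes. Of the 80 crossing genes, 72 were called, 45 higher and 27 lower at day 21, where 87.3% of all genes were called, 43.8% higher and 43.6% lower. Among the lower-then-higher genes, 26 rose, 9 fell and 7 were not called, with a median of 0.84. Among the higher-then-lower genes, 19 rose, 18 fell and 1 was not called, with a median of 0.01. The largest rises were in Slpi (5.42 ± 0.07 log2 units, limma adjusted p = 1.95e-26), Fndc1 (4.38 ± 0.09), Prg4 (4.32 ± 0.05, adjusted p = 6.02e-28) and Serpinb2 (3.98 ± 0.08). Falls of more than 3 log2 units included those of Actg2 (-3.55 ± 0.09, limma adjusted p = 4.87e-21) and Fbn2 (-3.06 ± 0.03). In each of these 6 genes the day 21 level lay on the same side of the day 1 level in both viruses. Not called were the lower-then-higher genes Fbln2 (0.04 ± 0.02, limma adjusted p = 0.0563), U90926, Cxcl14, Usp44, Bmpr1b, 3300005D01Rik and Kcnf1, and the higher-then-lower gene Sh3rf2.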

How the data were processed

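Strand-specific messenger RNA libraries (NuGEN kit, per the labels) were sequenced from 12 samples, 3 for each virus and day. The authors deposited a signal value for each gene and library, its reads per 1000000 reads of a library size scaled by TMM. Every value was a whole multiple of 1 read within 0.01, which gave back the reads. The submitters' processing notes list HTSeq 0.6.1, DESeq2, edgeR and STAR 2.7.2a without their steps, and GRCh38, although the gene identifiers are mouse ones; the mouse build and the strand setting of the counting are not given in the sources used here, so genes that overlap on opposite strands may share reads. Exons of 27 crossing genes overlap another gene, at 1 RPM or more in 9 of them (Epha1, Irf7, Dennd2d, Prg4, Oplah, Cxcl10, Crybg1, Atp8a1 and Gbp9). Names and coordinates are from GENCODE M21 (GRCm38), which holds 55394 of the 55573 identifiers, and promoters from RefSeq.

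Genes with at least 1 RPM in 3 libraries (13516) were fitted on log2(value + 1) with 1 mean per group in limma 3.58.1 (eBayes with trend, R 4.3.3), with two-sided p-values adjusted by Benjamini and Hochberg over all genes and a threshold of 0.05. A crossing gene had virus differences of opposite sign and at least 1 log2 unit at both days. The crossing genes, the lists and the tests were chosen with earlier results of these data known, and roles were assigned after values were seen. Named were the 12 genes each way with the largest smaller side and a mean of at least 5 RPM in 1 group, all crossing genes on a list, the 2 genes on either side of the limit in each direction, and the 5 highest and 5 lowest interactions; other genes were named to account for members by role. Some genes are not reported here, although they stay in all counts. Alternatives were other pseudocounts, filters and scalings, DESeq2 1.42.0 and edgeR 4.0.16 run on reads, a replicate block, no X and Y genes, other crossing limits and leaving out each library. Tests were also run on simulated data.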

Additional observations from a re-analysis of the deposited data

Results flagged for a closer look

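The difference between HOXB13 and vector cells changed between day 1 and day 21 by the amounts below in 9 genes at the ends of the ranking of called genes. They were picked for that size, so no test is given. High interactions were 6.56 in Crispld2, 5.91 in Thbs4, 5.91 in Postn, 5.83 in Sprr2k and 5.53 in Ccl8. Low ones were -6.48 in Fmo2, -5.91 in Kcnj2, -5.62 in Car3 and -5.56 in Spock2. Crispld2 and Postn were the crossing genes among them.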

How the results depend on the processing

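The number of crossing genes depended on how low levels were treated and on the limit. The 42 lower-then-higher genes became 71 with a pseudocount of 0.25, 19 with 4, 115 with edgeR and 114 with DESeq2, and 205 and 12 with limits of 0.5 and 1.5 log2 units. The 38 higher-then-lower genes became 80, 15, 131, 133, 218 and 10. The count called for the average day change moved from 72 of 80 to 389 of 423 and 21 of 22 with those limits. Requiring at least 2 log2 units, added after the data were seen, left 662 of the 9220 called interactions. All 80 genes kept both signs in every setting in which they were tested, and 29 crossed in all 23 settings. Without the scaling factors the median of all genes was 0.15 at day 1 and -0.23 in the interaction, 31 and 55 genes crossed, and called interactions went from 4941 higher and 4279 lower to 2821 and 6841. Leaving out 1 library gave 41 to 45 and 34 to 41 crossing genes, 71 to 74 calls for the average day change and 8861 to 9012 interactions; 19 of the 80 were lost in at least 1 case, with smaller sides of at most 1.12. With the replicate block 9182 interactions were called, and 42 and 38 genes crossed, and 72 of the 80 were called for the average day change. Equal replicate numbers did not mark pairs: their residual correlations over 10682 genes ran from -0.0749 to 0.0683, with 0 of 18 above 0.1. Levels under about 1 RPM limit the size of a difference on this scale.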
